A study of Oryctolagus cuniculus with 4 samples.

Results

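Slow and fast spots were compared in the Visium section of rabbit supraspinatus muscle collected 16 weeks after tenotomy, the surgical release of the tendon. Of the 1726 spots under tissue, 832 held at least 2000 UMIs and at least 20 UMIs of MYH1 and MYH7 together. These muscle-rich spots were ranked by the MYH7 fraction, the UMIs of MYH7 divided by those of MYH1 and MYH7, and split into 277 slow spots with the highest, 278 middle spots, and 277 fast spots with the lowest fraction. The groups were thus chosen by measured values of MYH1 and MYH7, and these genes are given as a description only. Of the other 894 spots, 838 were under the minimum of UMIs and 56 were deep enough but under the minimum for the 2 myosins.

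The series holds 6970 spots in 4 sections, each the only section of its condition, from female New Zealand White rabbits. Besides the muscle 16 weeks after tenotomy, they came from muscle 2 weeks after tenotomy, healthy muscle of the opposite side (labels 14L and 14R), and healthy muscle of another rabbit. The first 3 muscles had been stored frozen for 6 years and the last was used fresh. Muscles were pinned at their length in the body and snap-frozen. A spot captures polyadenylated RNA from a disc of tissue that can cover several fibers with the cells between them, so a spot is not a fiber and its fraction is a mixture. In such mixtures fewer fibers of a type and less RNA per fiber cannot be told apart. Since spots of the same section do not replicate a condition, values are given without a test. Intervals are 95% and cover counting error only.

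Skeletal muscle fibers are typed by their myosin heavy chain. Slow, type 1 fibers express MYH7 together with slow forms of the myosin light chains, troponins and the calcium pump of the sarcoplasmic reticulum, and rely largely on oxidative metabolism. Fast, type 2x fibers express MYH1 with fast forms of the same proteins and rely more on glycolysis. Supraspinatus, a muscle of the rotator cuff, contains both, and fiber types can shift when a muscle is unloaded or loses its attachment.

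The MYH7 fraction of the 832 spots ran from 0.0324 to 0.991 with a median of 0.759. Slow spots started at 0.833 (median 0.899), against 0.831 for the spot just outside, and fast spots ended at 0.628 (median 0.444), the same to 3 digits as the spot just outside. MYH7 exceeded MYH1 in 660 spots (79.3%), including 105 of the 277 fast spots. The fast group thus also held spots in which MYH7 prevailed. In summed UMIs, MYH7 stood at 246 per 10000 in slow and 104 in fast spots, and MYH1 at 26.0 and 164. The same rule gave a median fraction of 0.485 in the stored healthy section, where fast spots ended at 0.32 and slow spots started at 0.691, and of 0.0977 and 0.0909 in the 2-week and fresh sections.

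**Figure D1:**
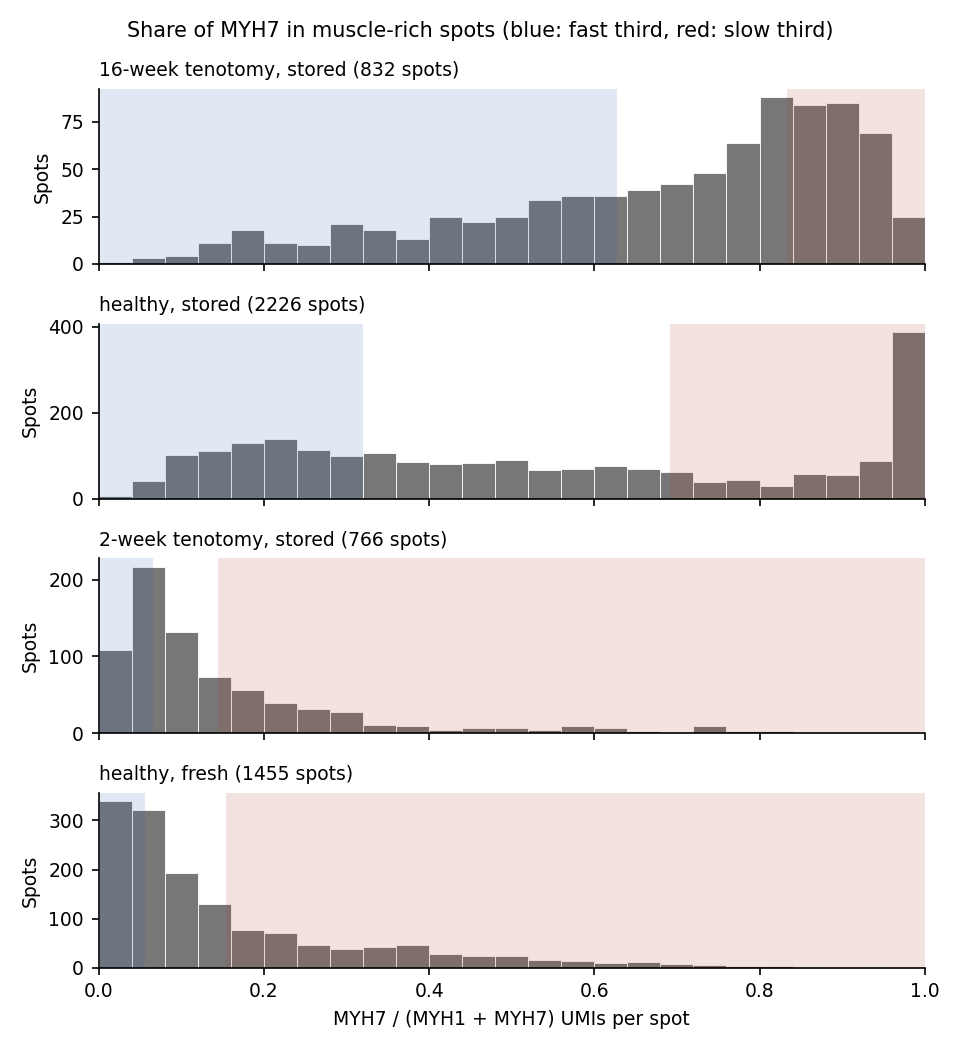
Number of muscle-rich spots (y axis) by MYH7 fraction (x axis, no unit) in each of the 4 sections, with the range of the fast spots shaded blue and that of the slow spots red. The 16-week spots pile up above 0.5 and their fast range reaches 0.628, while the slow range of the 2-week and fresh sections begins at 0.145 and 0.154.

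The groups were close in mitochondrial content, while slow spots were somewhat deeper. Slow spots held 1331380 UMIs (median 4709 per spot), middle spots 1154626 (3855.5) and fast spots 1195066 (3816). Mitochondrial transcripts made up 37.6% of the UMIs of slow, 36.5% of middle and 37.5% of fast spots. Ratios below are UMIs of a gene relative to all UMIs of its group, slow to fast, on the log2 scale with 0.5 UMI added, so that a positive value means higher in slow spots. They were read for the 848 genes with at least 200 UMIs in both groups together, MYH1 and MYH7 left out.

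Most genes differed little between slow and fast spots. The median log2 ratio was -0.01 with quartiles of -0.14 and 0.11, and 445 of 848 genes lay within 1.1-fold. A ratio of at least 1.5-fold, the size called a difference here, was reached by 36 genes in the slow direction (4.25%) and by 31 in the fast direction (3.66%). Of these, 16 and 11 were past 2-fold. All 36 of the first set and 29 of 31 of the second stood in between in the middle spots, which entered neither sum.

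Slow forms of the contractile and calcium handling proteins were higher in slow spots. Of 12 genes listed, 9 have a feature and 9 were counted, and 7 were at least 1.5-fold higher against the 4.25% of all genes, with a median log2 ratio of 0.96. Together the 9 made up 573 UMIs per 10000 in slow, and 312 in fast spots. TNNC1, the calcium sensing troponin of slow and cardiac muscle, ranged from 12.9 to 249 UMIs per 10000 over the slow spots (median 109), and from 3.51 to 148 over the fast spots (median 43.8). The ranges overlapped, but 93.9% of slow spots were above the fast median. The summed level was 2.39-fold higher in slow spots (log2 1.26, interval 1.21 to 1.30).

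MYL3, a slow essential light chain, ranged from 6.0 to 222 UMIs per 10000 (median 99.8) in slow spots and from 0 to 125 (median 38.1) in fast spots. Its log2 ratio was 1.21 (1.16 to 1.25). ATP2A2, the slow calcium pump, ranged from 0 to 57.0 (median 22.5) in slow spots and from 0 to 45.3 (median 9.29) in fast spots, and was 2.14-fold higher in slow spots (log2 interval 1.01 to 1.19). Both genes thus overlapped between the groups while their medians lay more than 2-fold apart. MYL2, the slow regulatory light chain, had most UMIs of the list at 256 per 10000 in slow and 134 in fast spots (0.93, 0.91 to 0.96). MYH7B, a myosin heavy chain related to MYH7, had the highest ratio of the list at 1.57 (1.18 to 2.00) but rested on 220 and 66 UMIs. MYOZ2, a Z-disc protein of slow fibers, had a ratio of 0.96 (0.77 to 1.15) and CASQ2, the cardiac and slow calsequestrin, of 0.70 (0.46 to 0.95). CASQ2 was past the fold in 12 of 14 alternatives, with a lowest value of 0.42.

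The remaining 2 slow forms were not past the fold, and only TNNI1 ran in the other direction. MYBPC1, slow myosin binding protein C, was at 0.38 (0.28 to 0.48), under the fold used. TNNI1, the slow inhibitory troponin, had a negative ratio of -0.24 (-0.28 to -0.19), with 48.7 UMIs per 10000 in slow, 49.7 in middle and 57.3 in fast spots. Its ratio was also negative elsewhere, at -0.76 in stored healthy muscle, -0.29 at 2 weeks and -0.19 in fresh muscle. Its fast counterpart TNNI2 has no feature of that name. Whether the TNNI1 feature also collects reads of a fast form was not tested, so its direction is not read as that of the slow protein.

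Fast forms held the 3 lowest ratios among genes with a symbol. Of 16 genes listed, 9 have a feature and 6 were counted, and 4 of these were at least 1.5-fold lower in slow spots against the 3.66% of all genes, with a median of -1.31. ACTN3, the alpha-actinin of fast Z-discs, ranged from 0 to 9.44 UMIs per 10000 over the slow spots and from 0 to 55.9 over the fast spots, with medians of 0 and 5.0. It was detected in 96 slow and 199 fast spots, and in 16.6% and 61.7% of them after every spot was thinned to 2000 UMIs. Most slow spots thus held none, and 101 fast spots (36.5%) stood above every slow spot. Its summed level was 8.8-fold higher in fast spots (log2 -3.14, -3.41 to -2.89).

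ATP2A1, the fast calcium pump, ranged from 0 to 38.1 UMIs per 10000 (median 7.44) in slow spots and from 0 to 155 (median 29.7) in fast spots, and was 4.23-fold higher in fast spots (log2 -2.08, -2.17 to -1.99). MYL1, a fast essential light chain, ranged from 0 to 140 (median 17.5) and from 1.61 to 194 (median 61.5) with a log2 ratio of -1.66 (-1.72 to -1.60). For both genes over 90% of fast spots were above the slow median, at 91.3% and 97.1%. MYOZ1, the fast counterpart of MYOZ2, was at -0.96 (-1.05 to -0.87). CASQ1, the fast calsequestrin, at -0.19 (-0.30 to -0.07) and MYLK2, the kinase of the skeletal regulatory light chain, at 0.07 (-0.12 to 0.26) lay within 1.5-fold. The other 3 were under the minimum, MYH4 (type 2b myosin) with 8 UMIs in slow and 14 in fast spots, MYH13 with 36 and 14, and MYOZ3 with 2 and 12. MYH2, the type 2a myosin, has no feature of that name in the table, so 2a fibers could not be told from others.

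**Figure D2:**
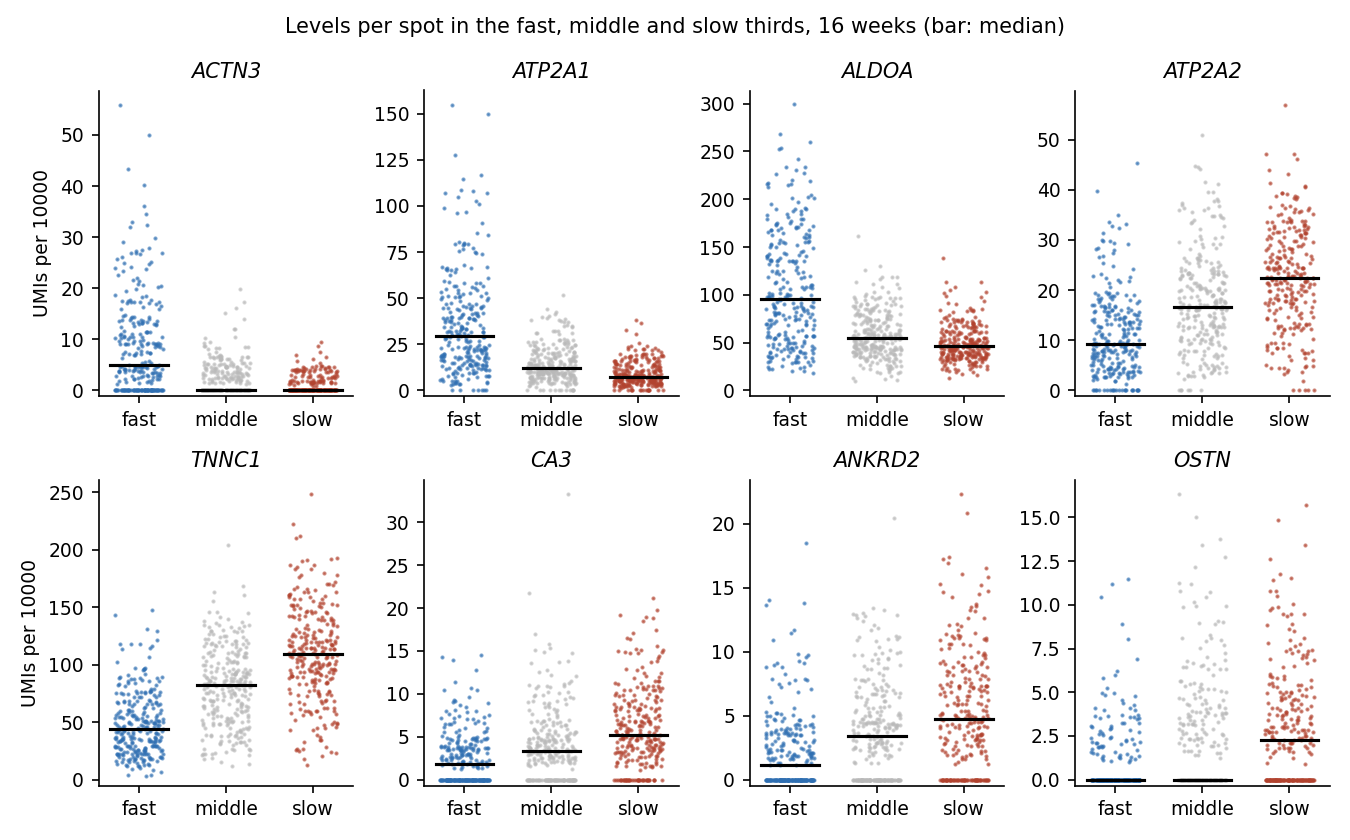
UMIs per 10000 UMIs (y axis) in each fast, middle and slow spot (points) of the 16-week section for 8 genes, with a bar at the median of each group. The clouds overlap for every gene, and the medians fall from fast to slow for ACTN3, ATP2A1 and ALDOA and are highest in slow spots for the other 5.

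The balance of paired slow and fast isoforms shifted in the same spots. Of 11 pairs listed, 4 could be counted. The ratio of ATP2A2 to ATP2A1 UMIs was 2.66 in slow, 1.22 in middle and 0.293 in fast spots, a 9.06-fold shift (log2 3.18, 3.05 to 3.31). The ratio of MYL3 to MYL1 was 4.69, 2.00 and 0.645, a 7.28-fold shift. These ratios are not corrected for how well each transcript is captured, so the shift between groups is read and not the level of one isoform over the other. MYOZ2 to MYOZ1 moved by 3.78-fold, from 0.436 in slow spots to 0.116 in fast spots. CASQ2 to CASQ1 moved by 1.86-fold, from 0.303 in slow and 0.302 in middle spots to 0.163 in fast spots.

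Of 2 small regulators of the calcium pumps named, STRIT1 was past the fold. It encodes a micropeptide known to promote pump activity in slow and cardiac muscle. It ranged from 0 to 140 UMIs per 10000 (median 50.5) in slow and from 0 to 104 (median 19.5) in fast spots, with a log2 ratio of 1.18 (1.12 to 1.25). MRLN, which encodes the inhibitory micropeptide myoregulin, stood at 0.58 (0.28 to 0.89) on 247 and 148 UMIs, just under 1.5-fold, and at -0.01 (-0.53 to 0.59) with the fraction at 0.8 or more against 0.2 or less. Elsewhere in the list for excitation and calcium handling, 9 of 24 genes were counted and the median was -0.23. TRDN, the triadin of the calcium release complex and the gene of this list with most UMIs, was at -0.13 (-0.22 to -0.04).

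Among developmental isoforms, 2 of 6 listed genes were counted. ACTC1, the cardiac actin that is also made in developing skeletal fibers, ranged from 0 to 117 UMIs per 10000 (median 23.1) in slow spots and from 0 to 68.5 (median 8.59) in fast spots. It was 2.38-fold higher in slow spots (log2 1.25, 1.16 to 1.34). MYBPH, a myosin binding protein, was at 0.12 (-0.23 to 0.47), but at 1.61 with only the outer groups of 6 and at 0.71 without spots rich in other tissue. At the fractions of 0.8 and 0.2 it was at 3.65, a value that rested on 1 UMI in the fast spots. Over the 6 bands it stood at 0.358 UMIs per 10000 in the band with least MYH7, at 1.75 in the next and between 1.11 and 1.39 in the others. MYL4, the embryonic light chain, had 132 and 64 UMIs, and MYH8, the neonatal heavy chain, 69 and 19, both under the minimum. A slow spot with a total of 12439 UMIs held 37 of those 69 MYH8 UMIs, as well as 22 of the 132 MYL4 UMIs and 23 of the 133 slow UMIs of NES, the intermediate filament protein nestin. Without this spot NES fell from 0.74 to 0.49, while ACTC1 stayed past 2-fold.

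The list drawn up for shared proteins of the sarcomere and Z-disc had a median of 0.01 over the 12 counted of 20 listed. MYOT and LMOD2, which act at the Z-disc and the thin filament, were higher in slow spots at 0.72 (0.52 to 0.93) and 0.87 (0.62 to 1.13). MYOT was past the fold in 12 of 14 alternatives and LMOD2 in 13. The M-band protein MYOM1 was also higher at 0.64 (0.36 to 0.92), but under the fold in 4 alternatives, at 0.38 to 0.53. TPM1, a tropomyosin, was 2.19-fold higher in fast spots (log2 -1.13, -1.18 to -1.09). Its ratio was also negative in the other sections, at -1.45 in stored healthy muscle, -0.81 at 2 weeks and -0.53 in fresh muscle, so its place in a shared list is open to doubt. XIRP2, an actin binding protein of fiber junctions and named outside the rule for naming genes, was at -0.59 (-0.74 to -0.45).

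Glycolytic genes were lower in slow spots. Of 32 genes listed, 16 have a feature and 11 were counted, and 8 of these were at least 1.5-fold lower against 3.66% of all genes, with a median of -0.90. Together the 16 made up 117 UMIs per 10000 in slow and 224 in fast spots. ALDOA, the muscle aldolase, ranged from 13.4 to 138 UMIs per 10000 (median 46.1) in slow spots and from 18.5 to 299 (median 96.1) in fast spots. The lower ends nearly coincided and the upper ends lay apart. ALDOA was 2.23-fold higher in fast spots (log2 -1.16).

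The muscle enolase ENO3 was at -1.21 (-1.28 to -1.13), PGM1, which links glycogen to glycolysis, at -1.17 (-1.38 to -0.97) and the muscle phosphoglycerate mutase PGAM2 at -0.95 (-1.03 to -0.88). TPI1 (triosephosphate isomerase) and GPI (glucose-6-phosphate isomerase) were at -0.90 and -0.87, and PPP1R3A, a glycogen targeting subunit of protein phosphatase 1, at -0.96. The glycolytic and glycogen genes named so far were picked by their low ratios, so their shared fast side follows from that choice. Among counted members of the list not picked this way, PHKA1 was at -0.83 (-1.12 to -0.55). PPP1R3C at -0.47 (-0.82 to -0.12) and SLC2A4 at -0.15 (-0.38 to 0.08) were under the fold used. LDHB, the lactate dehydrogenase subunit typical of oxidative tissue, named here after its value was seen, went the other way at 0.44 (0.34 to 0.54), under the fold used.

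**Figure D3:**
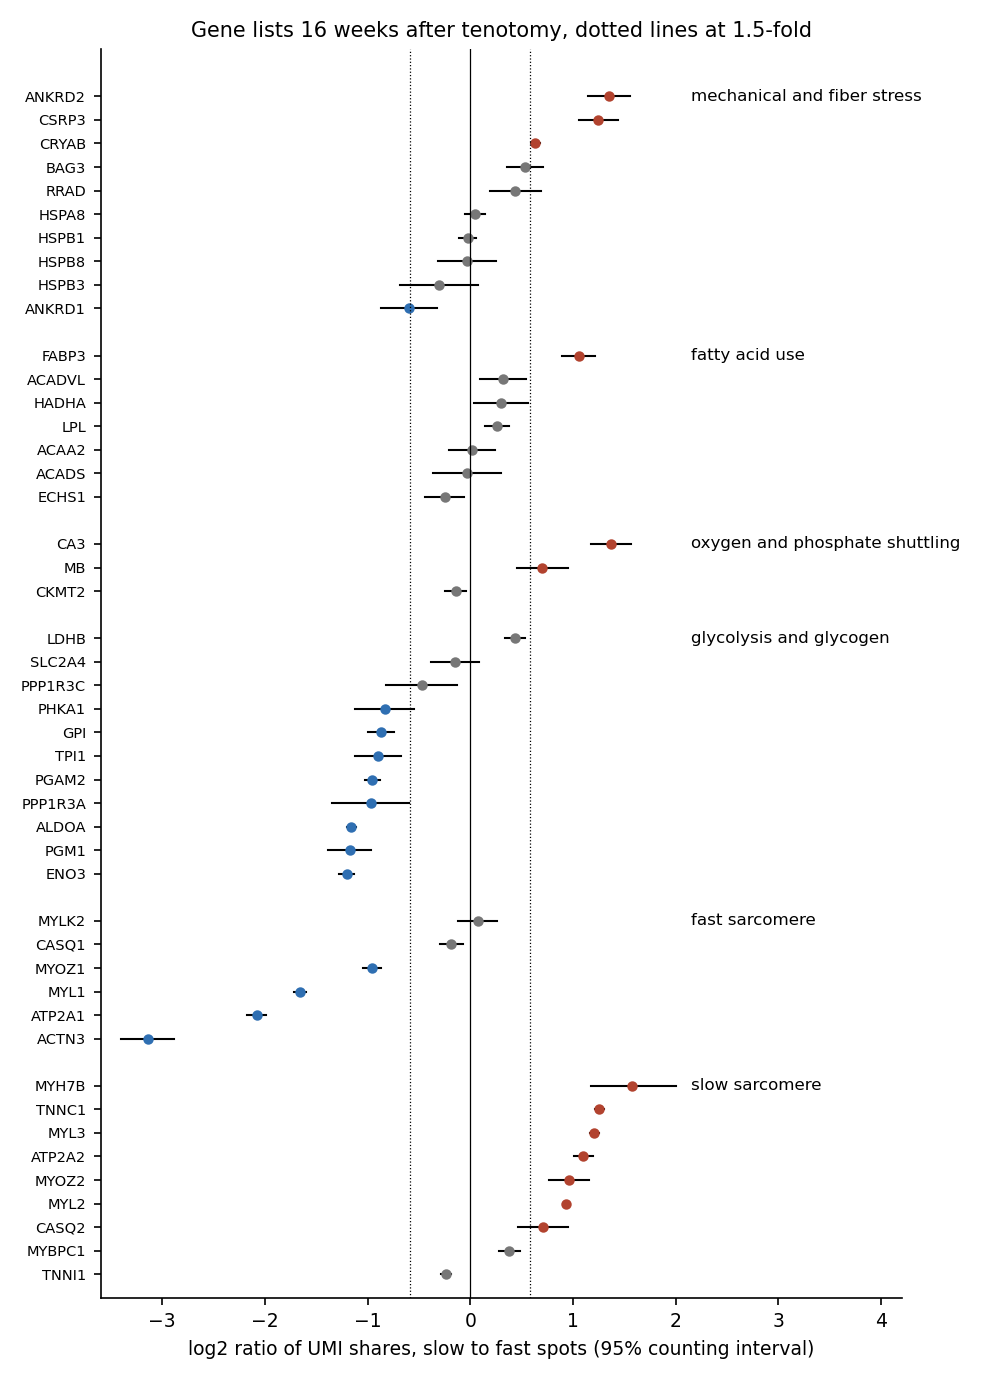
Log2 ratio of UMI shares, slow to fast spots (x axis), of the counted genes of 6 lists (y axis), with 95% counting intervals as lines, dotted lines at 1.5-fold and genes past it in red (higher in slow) or blue (lower in slow). Slow sarcomere genes lie mostly to the right (median 0.96) and fast sarcomere and glycolytic genes mostly to the left (medians -1.31 and -0.90), with TNNI1 and LDHB against their lists.

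The respiratory chain did not move with the glycolytic genes. All 26 counted nuclear genes of the respiratory chain lay between -0.25 and 0.15 (median 0.02), none past 1.5-fold, and their sum was 192 UMIs per 10000 in slow and 190 in fast spots. The most abundant of them, ATP5F1B of the ATP synthase, had medians of 23.2 and 23.7 UMIs per 10000 over slow and fast spots. The 18 counted mitochondrially encoded genes ran from -0.15 to 0.29, again with 0 past the fold. In the citric acid cycle list, 6 genes were counted, with a median of -0.14 and 0 past the fold.

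Genes of oxygen, phosphate and fatty acid handling gave a few slow-biased members. CA3, the cytosolic carbonic anhydrase abundant in slow fibers, ranged from 0 to 21.1 UMIs per 10000 (median 5.23) in slow spots and from 0 to 14.6 (median 1.84) in fast spots, with a log2 ratio of 1.37 (1.18 to 1.57). MB, the oxygen binding myoglobin, was at 0.70 (0.45 to 0.95) and past the fold in 11 of 14 alternatives, with a lowest value of 0.54. CKMT2, the mitochondrial creatine kinase of muscle, was at -0.14 (-0.25 to -0.04). FABP3, the heart and muscle fatty acid binding protein, was the only 1 of 7 counted fatty acid genes past the fold (4.25% of all genes), at 1.05 (0.90 to 1.22) with spot medians of 6.36 in slow and 3.05 in fast spots.

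Among stretch and stress genes, 3 of 10 counted were higher in slow spots (4.25% of all genes) and 1 lower (3.66%), with a median of 0.24. ANKRD2, a titin associated protein known to respond to stretch, ranged from 0 to 22.3 UMIs per 10000 (median 4.76) in slow and from 0 to 18.5 (median 1.12) in fast spots, a log2 ratio of 1.35 (1.15 to 1.56). CSRP3, the muscle LIM protein of the Z-disc, was at 1.25 (1.06 to 1.44) and the small heat shock protein CRYAB at 0.63 (0.59 to 0.68), which fell under the fold in 3 alternatives, to 0.38 in the largest position group. ANKRD1, a relative of ANKRD2 that is induced by injury and stretch, went the other way at -0.60 (-0.87 to -0.32), under the fold in 3 alternatives (-0.58, -0.47 and -0.44). A slow spot held 71 of its 193 slow UMIs, and it was detected in 62 slow and 106 fast spots.

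The gene with a symbol and the highest ratio was OSTN, which encodes musclin, a peptide secreted by muscle. It ranged from 0 to 15.7 UMIs per 10000 over slow spots (median 2.28, detected in 166 spots) and from 0 to 11.5 over fast spots (median 0, detected in 80). It was 3.33-fold higher in slow spots (log2 1.74, 1.44 to 2.05), on 439 and 118 UMIs. VGLL2, a muscle transcription cofactor, was at 0.82 (0.55 to 1.09) and was the only 1 of 3 counted fiber type regulators past the fold (4.25% of all genes). C1orf43, VWA2 and AVPI1 completed the 12 highest at 1.27, 1.33 and 1.30.

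Of the 848 genes, 305 carry an identifier only. Of these, 4 were past the fold in the slow direction (4.25% of all genes) and 11 in the fast direction (3.66% of all genes). ENSOCUG00000027416, named after its values were seen, had the lowest ratio of all at -3.98 (-4.61 to -3.45), with 28 UMIs in slow and 403 in fast spots. ENSOCUG00000035422 was at 1.59 (1.37 to 1.82), with 714 and 212 UMIs.

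**Figure D4:**
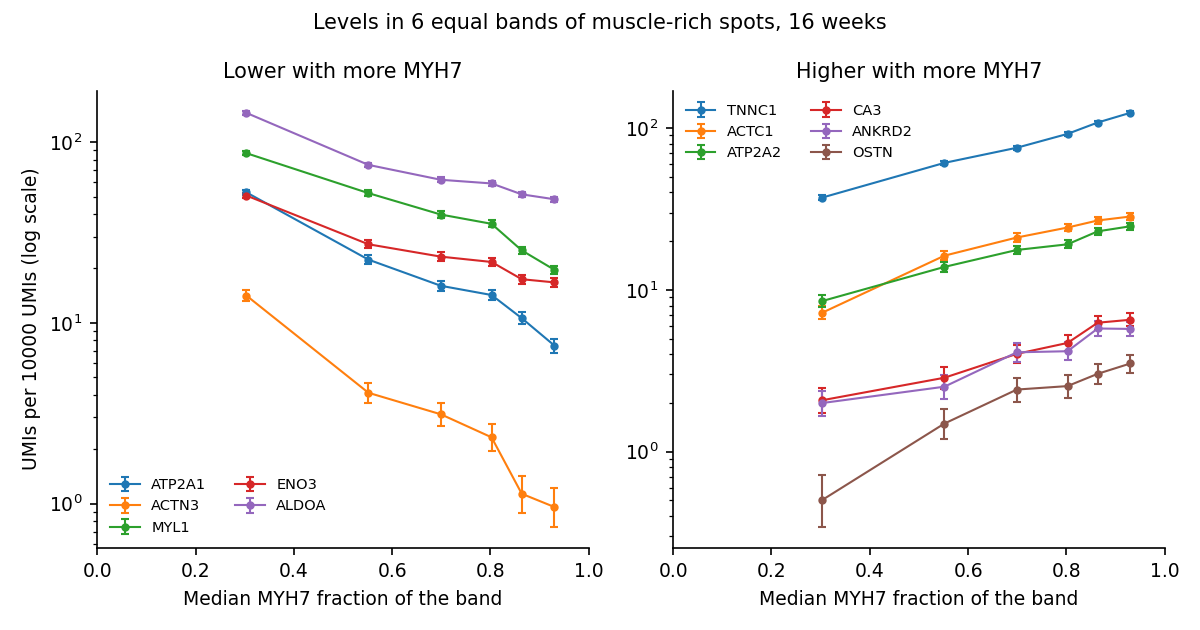
UMIs per 10000 UMIs (y axis, log scale) of 11 genes in 6 bands of 138 or 139 muscle-rich spots ordered by MYH7 fraction (x axis, median of the band), with 95% counting intervals as bars. ACTN3 falls from 14.1 in the first band to 0.956 in the last, OSTN goes from 0.504 to 3.51 and TNNC1 from 37.2 to 124.

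Across 6 bands of the fraction, TNNC1, ACTN3 and OSTN each moved one way from band to band. TNNC1 stood at 37.2, 60.9, 75.6, 92.0, 108 and 124 UMIs per 10000 from the lowest to the highest band. ACTN3 stood at 14.1, 4.10, 3.12, 2.32, 1.13 and 0.956, with its largest step in fold between the first 2 bands, whose median fractions were 0.304 and 0.552. OSTN likewise had its largest step there, from 0.504 to 1.49, and ended at 3.51. The band medians of the fraction were 0.304, 0.552, 0.699, 0.802, 0.864 and 0.930. The first 2 bands thus also lay farthest apart in fraction.

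Lists for muscle wasting and for other processes held few or no called genes. Of 15 counted genes of atrophy and proteolysis 0 passed the fold in either direction (median -0.02), and of 11 counted genes of the cytosolic ribosome also 0 (median -0.03), near the shares of 4.25% and 3.66% of all genes for lists of this size. None of the denervation and neuromuscular genes reached 200 UMIs. In the satellite cell and myogenesis list, NES was past the fold on 133 and 71 UMIs, but lost this in 5 alternatives and turned to -0.32 and -0.43 in 2 of them, and DES, the muscle intermediate filament desmin, was at 0.04.

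Lists of markers of other tissues had summed levels within 1.5-fold between slow and fast spots, save the scarce lymphocyte list. The connective tissue list (12 with a feature, SPARC at 0) summed to 57.7 UMIs per 10000 in slow and 55.4 in fast spots, with a range of 6.08 to 876 over slow and 5.31 to 700 over fast spots, and 9 of its 12 genes had a ratio above 0. Spot medians of this list ran the other way, at 38.7 in slow and 44.3 in fast spots. DCN, its most abundant gene, was at 0.02 (-0.07 to 0.11). The macrophage list (11, none at 0) summed to 2.53 and 2.54, and the adipose list (5, LEP at 0) to 11.1 and 9.47 (log2 0.23, 0.12 to 0.34). LPL, also in the fatty acid list, held 1361 of the 1477 slow and 1022 of the 1132 fast UMIs of the adipose list. The adipose sum is thus mostly that of LPL, and 2 of the 5 genes had a ratio above 0. LPL was at 0.26 (0.14 to 0.38). It was past the fold in 1 of 14 alternatives, with the fraction at 0.8 or more against 0.2 or less (0.70 to 1.33). Endothelium, vessel wall, nerve, blood and lymphocyte lists had summed log2 ratios of -0.17, -0.09, -0.07, 0.27 and 0.71, the last with an interval of -0.25 to 1.79. APOD, a lipid carrier made in connective tissue and nerve sheaths, was 1.97-fold higher in slow spots (log2 0.98, 0.80 to 1.15), with spot medians of 1.85 and 1.21 and a highest spot of 117. APOD was past the fold in 13 of 14 alternatives, including the one without spots rich in other tissue. It fell to 0.46 when the spots were split into an upper and a lower group without a middle. The part of other tissue within the remaining spots was not tested.

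Slow spots were not spread evenly over the slide. Spot positions were known only by which other sections also covered the same barcode. Of 130 muscle-rich spots whose barcode was not under the stored healthy section, 64.6% were slow and 14.6% fast, against 27.5% and 36.8% of the other 702. The 16-week section shared 1454 of its 1726 barcodes with the stored healthy section, 602 with the 2-week and 1377 with the fresh section, and 92 with none. With spots of the largest position group only, 112 slow and 112 fast, the genes past the fold in the slow direction numbered 22 of 437 counted.

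The same rule applied to the stored healthy section gave the same direction for nearly all of these genes. Of the 34 slow-biased genes counted in both sections, 34 were above 0 there and 27 were past the fold. Of the 31 fast-biased genes, 30 were below 0 and 28 past the fold. Over all 825 genes counted in both, 22.7% were past the fold there in the slow and 6.3% in the fast direction. In that section 71.8% of the 825 shared genes were above 0 and 28.2% below, so more of the slow-biased than of the fast-biased genes would be on their side in any case. Over the genes counted in both sections, the slow isoform list had a median of 1.87 there (9 genes), the fast list -1.68 (6) and the glycolysis list -1.19 (11), each farther from 0 than at 16 weeks (0.96, -1.31 and -0.90). The groups also lay farther apart in the choosing genes, since the log2 ratio of MYH7 minus that of MYH1 spanned 6.25 there and 3.90 at 16 weeks.

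With the fraction fixed at 0.8 or more for slow and 0.2 or less for fast spots in both sections, a choice made after seeing the data, 351 slow and 37 fast spots at 16 weeks stood beside 617 and 397 in stored healthy muscle. The slow groups were still not alike, with 388 spots at 0.96 or more in healthy muscle and 25 at 16 weeks. The median gene at 16 weeks was at 0.19. The part of these differences in the values below was not tested. The ratios of some fiber type genes then lay close together and others stayed apart. TNNC1 was at 2.12 at 16 weeks and 2.13 in healthy muscle, STRIT1 at 2.06 and 1.96, ANKRD2 at 2.08 and 2.10, MYL1 at -2.29 and -2.25, and ENO3 at -1.95 and -1.92. ATP2A1 differed more between slow and fast spots at 16 weeks (-2.92) than in healthy muscle (-2.35), and FABP3 did as well (1.56 and 0.64). ACTC1 differed less (2.47 and 3.45), as did MYL2 (1.68 and 2.18), RRAD, a small GTPase of muscle (0.76 and 2.76), and the calcium binding protein S100A1 (1.0 and 2.28). MYOZ2 (1.45 and 2.19), MYH7B (2.36 and 3.29) and CA3 (1.65 and 2.24) were also lower at 16 weeks, but their counting intervals overlapped between the sections. MYH7B rested on 5 UMIs in the fast 16-week spots (1.26 to 4.13). RRAD and S100A1 were named for their difference between the sections, where ACTC1 was also among the 6 smallest. Their smaller ratios at 16 weeks follow in part from that choice.

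Many genes outside the fiber type lists also differed between the sections. In stored healthy muscle, 187 of 825 genes (22.7%) were at least 1.5-fold higher in slow spots, and 108 of these were less than 1.1-fold higher at 16 weeks. The median gene there was itself at 0.26, against -0.01 at 16 weeks. Mitochondrial transcripts made up 46.2% of the UMIs of slow and 50.2% of fast healthy spots, against 37.6% and 37.5% at 16 weeks. The part of this general shift in the differences between the sections was not tested. Connective tissue genes were prominent among the lists, with 6 of 6 counted there past the fold and a summed level of 69.9 UMIs per 10000 in slow and 28.7 in fast healthy spots, against 57.7 and 55.4 at 16 weeks. FN1, the matrix protein fibronectin, was at 1.74 in healthy and 0.07 (-0.08 to 0.22) in 16-week spots, with a difference of -1.68 (-1.86 to -1.49). APOD had the opposite pattern, at 0.08 in healthy and 0.98 in 16-week spots, a difference of 0.89 (0.64 to 1.14). FN1 and APOD were named because their differences were among the 6 smallest and 6 largest, so these sizes follow from that choice. Each side of these differences is 1 section, so section and condition cannot be told apart.

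**Figure D5:**
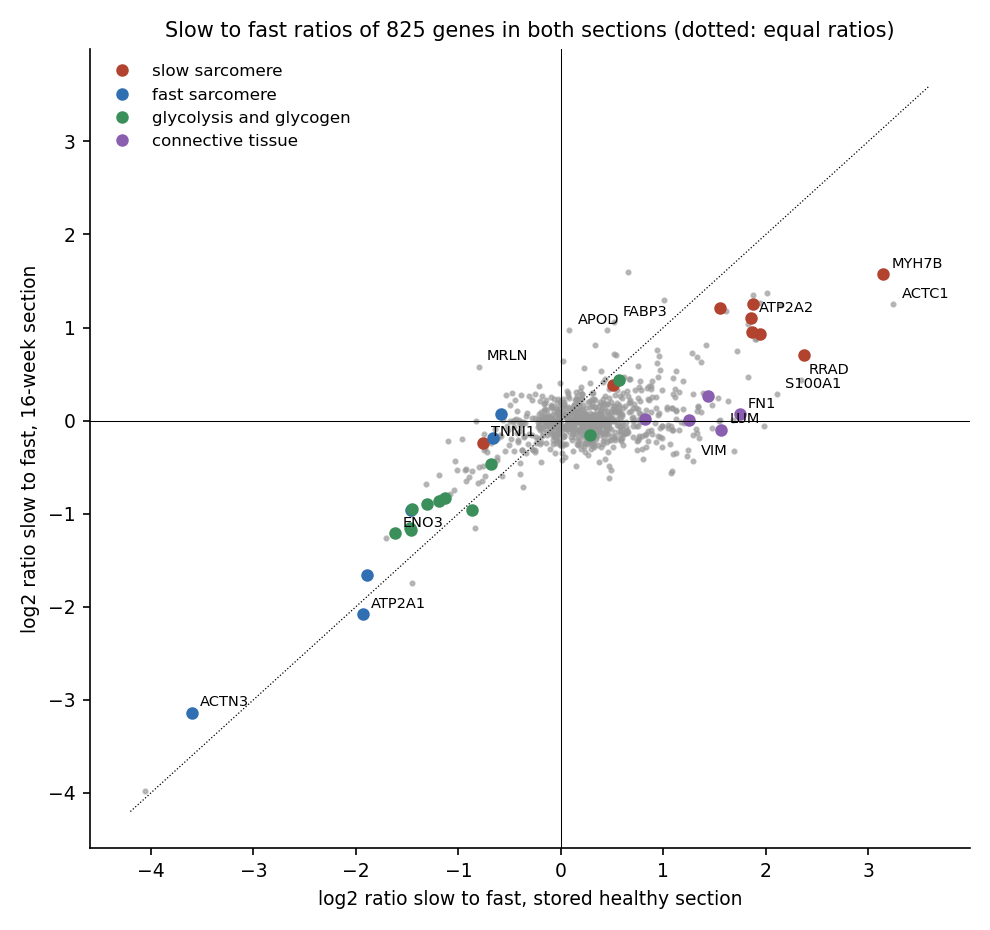
Log2 ratio slow to fast of 825 genes in the stored healthy section (x axis) and the 16-week section (y axis), 1 point per gene, with 4 lists in color and a dotted line of equal ratios. Most fast sarcomere and glycolytic genes lie slightly above the line on the lower left, most slow sarcomere genes below it on the right, and connective tissue genes such as FN1 (1.74 and 0.07) on the line of 0 at 16 weeks.

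In the 2-week section, 27 of 29 slow-biased and 30 of 31 fast-biased genes counted there had the same sign, and in the fresh section 25 of 28 and 27 of 30. Fewer were past the fold, 21 slow-biased and 18 fast-biased genes at 2 weeks, and 17 and 5 in the fresh section. The shares past the fold over all genes counted in both were 5.02% and 4.89% at 2 weeks, and 4.51% and 1.37% in the fresh section. Of all genes counted in both, 41.1% were above and 58.9% below 0 at 2 weeks, and 46.9% and 53.1% in the fresh section. ACTN3 was closer to 0 there, at -0.89 and -0.90, and TNNC1 farther from it, at 2.29 and 2.36, while CASQ1 of the fast list was farther from 0 (-0.69 and -0.29) than at 16 weeks (-0.19). MYH7 exceeded MYH1 in 46 of 766 and 83 of 1455 muscle-rich spots. ACTC1 changed sign, at -1.49 in the 2-week section against 1.25 at 16 weeks, 3.24 in stored healthy and 1.13 in fresh muscle.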

How the data were processed

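Visium 3′ libraries of 4 sections were analysed, 1 per condition. With Space Ranger 1.2.0, the authors aligned reads to OryCun2.0, annotated by Ensembl, merged those sharing a UMI, and deposited the raw UMI counts of each gene in every spot covered by tissue. The deposited position lists hold no barcodes and were not used here. Symbols are those of the deposited feature lists. The members and gene lists were chosen with earlier results of these data known.

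UMIs were summed over the spots of each group and related to the group total, with 0.5 UMI added before the logarithm. Genes needed 200 UMIs over both groups and a difference was called at 1.5-fold. Slow to fast ratios carry exact conditional (binomial) intervals and shares Clopper-Pearson intervals, at 95%. Intervals of isoform pair shifts and of differences between sections are normal approximations from the counts, also at 95%. These reflect counting alone, and no variation over spots, animals or sections. RNA can spread between neighboring spots. Doublets were not called, a spot being a region of tissue. Position was read from the combination of sections holding a barcode.

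Genes named by rule had a symbol and were all members of the slow, fast and developmental lists and the 12 highest and 12 lowest ratios. Added to these were, from each other list, up to 4 members past the fold and the one with most UMIs. The 6 largest and 6 smallest differences from the stored healthy section completed the rule. XIRP2, PHKA1, PPP1R3C, SLC2A4, LDHB and the genes with an identifier only were named outside this rule, and alternatives were not read for them. Alternatives covered scaling, thinning to 2000 UMIs, other minimums (50 myosin UMIs, 1000 or 4000 UMIs per spot, 50 or 500 UMIs per gene), group size, MYH4 in the fraction, spots rich in other tissue, the top spot, position and a 2-fold limit. Fixed fractions of 0.8 and 0.2 and leaving out spots with 2 or more MYH8 UMIs were added after seeing the data. Intervals were checked on sums simulated with counting error alone, which says nothing about spread over spots. Analyses ran in Python 3.11.15 with scipy 1.17.1, numpy 2.4.6 and pandas 2.3.3, and matplotlib 3.10.9 drew the plots.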

Additional observations from a re-analysis of the deposited data

Results flagged for a closer look

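Of the 825 genes counted in both, 50 had ratios of opposite sign in the 16-week and the stored healthy section with counting intervals that excluded 0 in both, 4 of them among the genes named by rule. VIM, the intermediate filament of connective tissue cells, had a log2 ratio slow to fast of -0.43 at 16 weeks and 1.29 in stored healthy muscle. CKMT2 had -0.14 and 0.44. NRAP, an actin binding protein of fiber ends, had 0.30 and -0.48, and MRLN 0.58 and -0.80. VIM, NRAP and MRLN were named for their differences between the sections, so these follow in part from that choice. The differences were not tested, since each condition is 1 section. The median gene was at 0.26 in stored healthy and -0.01 in 16-week spots, and the part of this shift in the signs was not tested. With fractions fixed at 0.8 and 0.2 in both sections, VIM was at 0.18 and 1.34, CKMT2 at -0.28 and 0.51, NRAP at 0.03 and -0.42 and MRLN at -0.01 and -0.98, on 37 fast spots at 16 weeks, where the 16-week interval excluded 0 for CKMT2 only.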

How the results depend on the processing

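The counts of 36 higher and 31 lower genes of 848 stayed within 1.5 times in 12 of 16 alternatives each. The number of genes counted changed as well. Higher genes numbered 22 of 437 in the largest position group, 103 of 2225 at 50 UMIs per gene and 16 of 848 at 2-fold. At the fixed fractions they numbered 125 of 677, where the median gene shifted to 0.19 and 37 fast spots were left. Lower genes numbered 18 of 486 after thinning to 2000 UMIs, 115 of 2225 at 50 UMIs per gene, 20 of 440 at 500 UMIs per gene and 11 of 848 at 2-fold. The slow isoform median of 0.96 moved to 1.39 with 6 groups in place of 3 and to 1.86 at the fixed fractions, and stayed close in 13 of 15 alternatives, as the fast isoform median did in 15 of 15. Of 39 genes named by rule and past 1.5-fold, 27 stayed past it in every alternative run for them and 38 kept their sign. NES changed sign, to -0.32 without spots rich in other tissue and to -0.43 in the largest position group. 10 calls were lost when the spots were split into an upper and a lower group without a middle. The cause of these changes was not tested where it does not follow from fewer genes, fewer spots or the fold itself. No paired analysis was possible because there is 1 section per condition and the result comes from no test. Leaving out a replicate could not be done for the same reason. Depth limited the lists of scarce transcripts, with 3 of 19 fiber type regulators and 0 of 12 denervation genes reaching 200 UMIs.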
